A study of Caenorhabditis elegans and Caenorhabditis briggsae and Caenorhabditis remanei with 48 samples.

Results

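The 2 C. elegans coding sequences CE01031 and CE05202 carry names of large-subunit ribosomal proteins in the study, rpl-16 and rpl-24.2, and had lower mRNA levels in fed than in starved larvae. They were chosen by these identifiers and for that direction, from 21035 C. elegans coding sequences measured in both assays, and were set against the 46 coding sequences named rpl- or rps- (26 and 20) in the study's list of genes with high weights in a principal components analysis of its footprint data. The mRNA level and the footprint level of both had therefore been used in choosing them, and the values below describe them without a test. The files name coding sequences by protein identifiers only, and gene names for them come from the study's gene lists.

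Developing animals were C. elegans N2 (Bristol) first-stage (L1) larvae, hatched and held for 24 h in S-complete liquid without food and then given E. coli HB101 for 3 h. Diapause animals were N2 larvae frozen after the same 24 h of starvation, when development is arrested. Each replicate was a population of whole animals of which a part was fed, so that signal is an average over all tissues, and fewer cells of a type cannot be told apart from less RNA per cell. Of 48 libraries from 4 species, the 12 of C. elegans were used, 3 for each state in each of 2 assays: poly(A)-selected mRNA and ribosome-protected fragments (RPFs), the short stretches of mRNA that translating ribosomes shield from nuclease.

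A ribosomal protein gene of the rpl- or rps- kind encodes a structural protein of the large or small subunit. Such mRNAs are abundant, and in many organisms their translation is reduced when nutrients are short. A ribosome is also built by a second set of proteins, the biogenesis factors, which act in the nucleolus and are not found in the finished particle. The relatives of yeast Rlp24 belong to that second set: they resemble ribosomal protein L24 (eL24), occupy its place on the precursor of the large subunit, and leave before the real protein joins. The symbol rpl-24.2 is an older one for such a relative, the gene C03D6.8, which the RefSeq annotation (WBcel235) calls rsl-24D1 and places on chromosome I. The genuine L24 gene is rpl-24.1 (rpl-24 in RefSeq, locus D1007.12, also on chromosome I).

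The name of CE01031 is in doubt. The study's list of transcripts with lower mRNA and higher RPF levels holds this identifier in 2 rows, with 2 names, rpl-16 and M01F1.3. In RefSeq, M01F1.3 is lias-1, a lipoyl synthase, which is an iron-sulfur enzyme of lipoic acid synthesis and no part of the ribosome. Its neighbour on chromosome III, the protein-coding gene just before it, is M01F1.2, now called rpl-13A, for which rpl-16 is an older symbol. The study's functional lists repeat the ambiguity. CE01031 and its numerical neighbour CE01030 appear together in each of the 4 lists, of 198, that hold either of them, and these are large ribosomal subunit and ribosomal subunit on one side and iron-sulfur cluster and metal cluster binding on the other. Which of the 2 genes either identifier stands for cannot be read from the files, so both identifiers were described side by side. CE05202 has 1 name, and it stands in the lists for nucleolus, ribosome biogenesis, ribonucleoprotein complex and structural molecule activity.

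CE01031 and CE01030 differed in mRNA level and in the direction of its change. In developing animals the mean normalised mRNA signal of CE01031 was 1971, against 3607 in diapause animals, and that of CE01030 was 40331 in developing and 21454 in diapause animals. Signal here is reads per coding sequence divided by a size factor for library depth, as the mean of the 3 libraries, and is not divided by length. Every one of the 46 rpl- and rps- sequences had more mRNA signal in each state than CE01031 or CE05202, and each had more in developing than in diapause animals. The nearest of them in diapause were rpl-28, with 19290 in developing and 7601 in diapause animals, and rps-27, with 17839 in developing and 7871 in diapause animals. CE01030 lay inside their range, with 29 of the 46 below it in developing and 30 below it in diapause animals. CE01031 was chosen for its lower mRNA in developing animals, and the 46 sequences come from a list drawn on RPF data, so these differences do not settle which gene CE01031 is. Because its name is ambiguous, it is called by its identifier here.

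The single libraries show the spread behind these means. Each state mean is printed with 15 digits, which was enough to recover the whole reads of its 3 libraries. For CE01031, mRNA signal in the developing libraries was 1620, 1998 and 2294, and in the diapause libraries 3306, 3495 and 4020. The lowest diapause library was above the highest developing library. The 3 developing values came from 2152, 917 and 1287 reads and the diapause values from 7194, 4744 and 4171 reads, so that counting error was small beside the difference between libraries. The log2 change, developing over diapause, was −0.87 (SE 0.17, n = 3 libraries a state), or 1.83-fold lower in developing animals. Of 12115 well-expressed transcripts, those with a mean signal of at least 50 in both assays, 47.6% had lower mRNA in developing animals and 29.5% were lower by at least 0.32 log2 units. The 2 sequences were chosen on this contrast, and nothing is read from their place beside those shares.

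RPF signal of CE01031 ran the other way and was low in both states. The developing libraries had 517, 574 and 574, and the diapause libraries had 302, 324 and 356. The states did not overlap. The counts were between 218 and 914 reads a library, and their counting error gives a coefficient of variation of 4.71% in developing and 5.22% in diapause animals, beside 5.94% and 8.36% measured between the libraries of these states. The mean RPF signal was 555 in developing and 328 in diapause animals, a log2 change of 0.76 (SE 0.09, n = 3), or 1.70-fold. Among the well-expressed transcripts, 50.5% had higher RPF signal in developing animals. The size of the change depends on the scaling: as a share of the summed RPF signal of its state, CE01031 had 0.0059% in developing and 0.0047% in diapause animals, which is a log2 change of 0.32.

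The mRNA of rpl-24.2 (CE05202) was lower in developing animals by a smaller step. Its developing libraries had 1754, 2146 and 2210, and its diapause libraries 2425, 2876 and 3046. Every diapause library was above every developing library, by as little as 0.13 on the log2 scale for the nearest pair. Means of 2037 in developing and 2782 in diapause animals gave a log2 change of −0.45 (SE 0.14, n = 3), or 1.37-fold lower.

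The RPF signal of rpl-24.2 was several-fold higher in developing animals. The developing libraries had 1408, 1410 and 1426, and the diapause libraries 328, 332 and 343. These libraries were far apart between states and nearly equal within them. The means of 1415 in developing and 334 in diapause animals differed 4.23-fold, a log2 change of 2.08 (SE 0.02, n = 3). The coefficient of variation was 0.689% in developing and 2.42% in diapause animals, against medians of 8.50% over 563 transcripts and 9.0% over 1660 transcripts with signal within 0.32 log2 units of it, and counting error alone, from 240 to 2246 reads a library, gives an SE of 0.05 for the log2 change. The SE of 0.02 between libraries is thus below the counting error. For the mRNA of rpl-24.2 the coefficient was 12.1% in developing animals (median 9.64% for transcripts of like level) and 11.5% in diapause animals (median 9.13%).

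**Figure D1:**
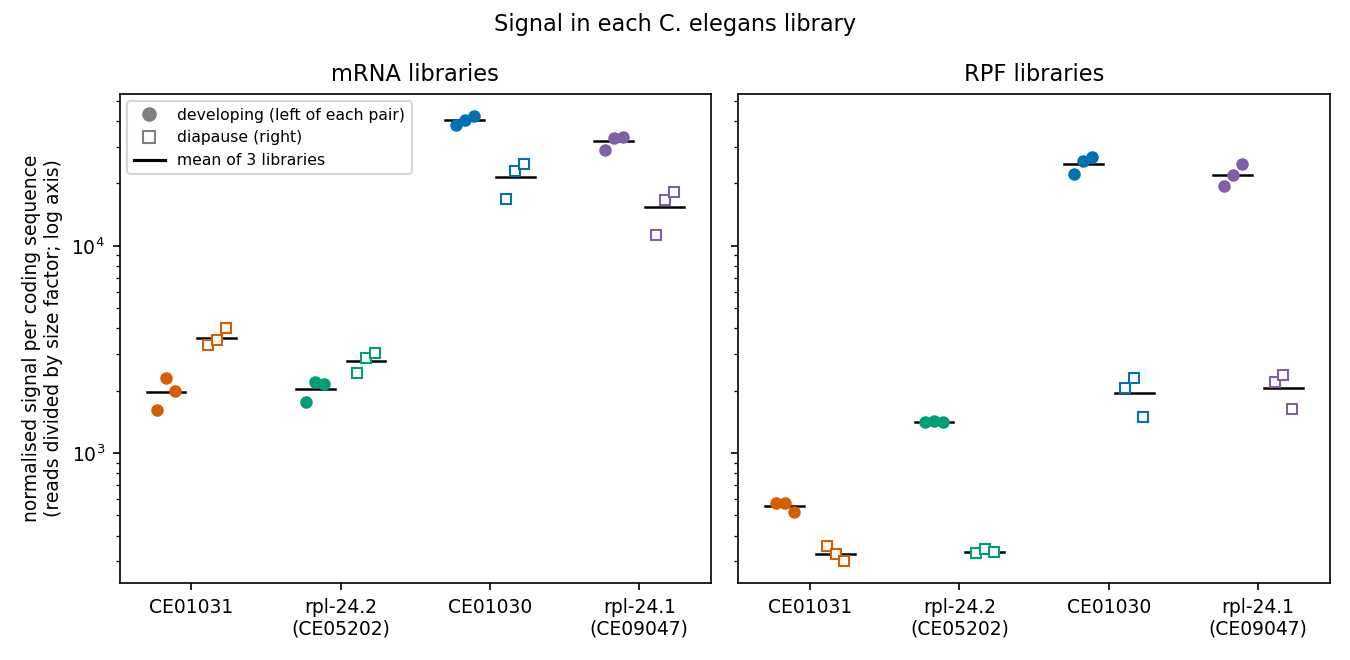
Normalised signal of CE01031, rpl-24.2, CE01030 and rpl-24.1 in each C. elegans mRNA library (left panel) and RPF library (right panel), on a log axis. Filled circles are developing and open squares diapause libraries, the deepest library of a state at its left, and black bars are means of 3 libraries. For CE01031 and rpl-24.2 the developing libraries lie below the diapause libraries in mRNA and above them in RPF, whereas for CE01030 and rpl-24.1 they lie above in both.

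CE01030 and rpl-24.1 had more signal in developing animals in both assays. CE01030 had mRNA signal of 38094, 40521 and 42377 in the developing libraries, against 16718, 22860 and 24785 in the diapause libraries, a log2 change of 0.91 (SE 0.18, n = 3). Its RPF signal was 22143, 25772 and 26678 in developing and 1487, 2052 and 2291 in diapause libraries, a log2 change of 3.68 (SE 0.20). The genuine L24 gene, rpl-24.1, had mRNA means of 31855 in developing and 15315 in diapause animals and RPF means of 22029 in developing and 2068 in diapause animals, with log2 changes of 1.06 and 3.41 (SE 0.22 and 0.20). Between rpl-24.1 and rpl-24.2 the mRNA change differed in sign, with no overlap of states in either. Of 11958 transcripts, 31% were lower and 36.5% higher in developing animals without overlap in mRNA. Since rpl-24.2 was chosen for lower mRNA, nothing is read from the difference in sign. The shallowest diapause RPF library was the lowest of its state for CE01030, rpl-24.1 and CE01031, but not for rpl-24.2.

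Among the 46 rpl- and rps- sequences none had lower mRNA in developing animals, where 47.6% of all well-expressed transcripts did. All 46 had higher RPF, and of the 6117 well-expressed transcripts with higher RPF 14.3% had lower mRNA. Their mRNA changes ran from 0.44 for rpl-3 and 0.53 for rpl-4, both large-subunit proteins, through a median of 1.05, to 1.41 for rpl-38 and 1.43 for rps-25. The lowest of them was 1.31 log2 units above CE01031 and 0.89 above rpl-24.2. Single-library mRNA values could be recovered for 32 of them, since means of the others were too high for a single solution. In all 32 the developing libraries were above the diapause libraries, which held for 36.5% of 11958 transcripts, whatever their RPF change. The others included rpl-3, rpl-4, rpl-7 (0.70) and rpl-5 (0.79), with small rises, but also rps-23 (1.31) and rps-25, with large ones. The 32 therefore need not stand for all 46. The study chose this list on the RPF data of these libraries, so its RPF changes are no independent evidence. They ran from 3.18 (rps-27) upward with a median of 3.57, against 0.76 for CE01031 and 2.08 for rpl-24.2, and the median over all well-expressed transcripts was 0.01 (mRNA, 0.04). All 46 were at least 2-fold higher in RPF, as were 19.6% of all well-expressed transcripts.

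The combination of lower mRNA with higher RPF was itself uncommon. It was met, at any size, by 7.21% of well-expressed transcripts, and by 1.21% with both changes of at least 0.32 log2 units. With single libraries, 1.3% of 11958 transcripts had developing libraries all below in mRNA (31% on their own) and all above in RPF (36.1% on their own). CE01031 and rpl-24.2 met each of these conditions, which is the pattern for which the study listed them, and none of the 46 rpl- and rps- sequences was on that list.

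**Figure D2:**
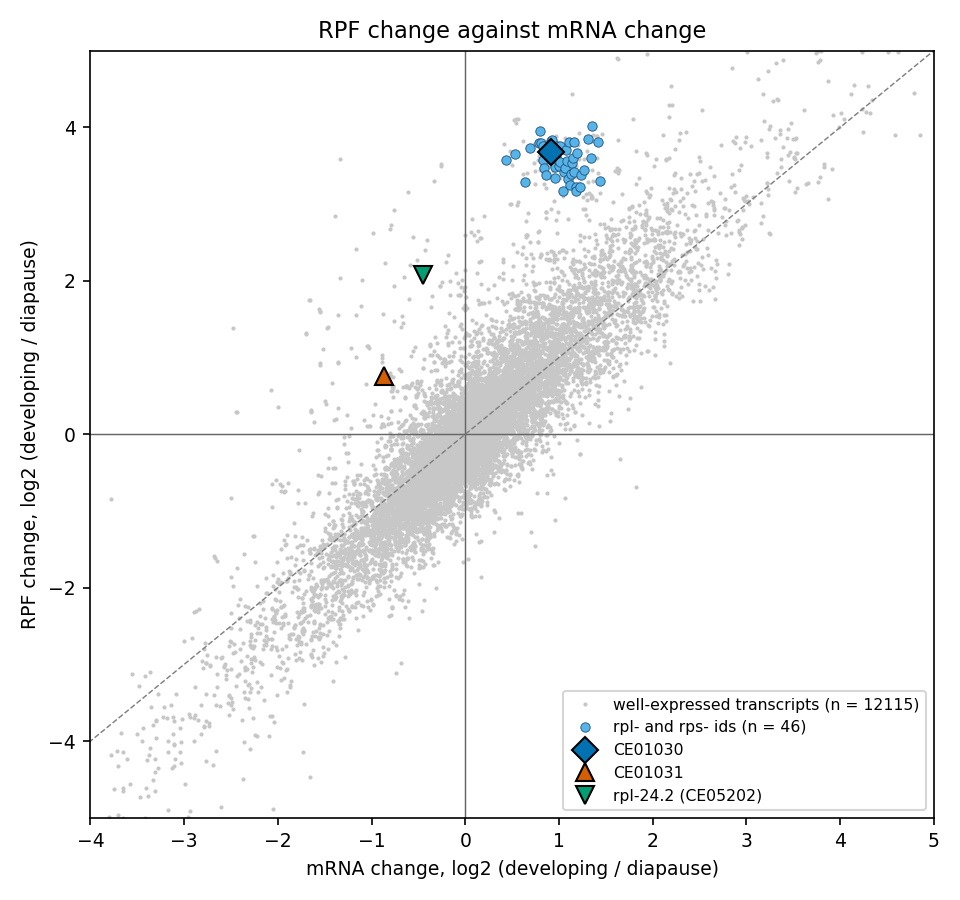
RPF change against mRNA change, both log2 of developing over diapause, for 12115 well-expressed C. elegans transcripts (99 lie outside the axes); the dashed line marks equal changes. CE01031 (−0.87, 0.76) and rpl-24.2 (−0.45, 2.08) lie left of the vertical zero line and above the horizontal one, and CE01030 lies among the 46 rpl- and rps- sequences, all right of the vertical line.

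The change in translation efficiency (TE), RPF signal over mRNA signal, of rpl-24.2 was within the range of the 46 rpl- and rps- sequences. Its TE was 5.78-fold higher in developing animals, a log2 change of 2.53 (SE 0.15), where the median of the 46 sequences was 2.53 and 23 of them were lower. CE01030 had a log2 TE change of 2.77 (SE 0.27), with 36 of the 46 lower. CE01031 had 1.63 (SE 0.19), or 3.10-fold, and lay below the lowest of them, rps-25 at 1.87. With libraries combined in all 81 ways, the log2 TE change lay between 1.06 and 2.24 for CE01031 and between 2.17 and 2.92 for rpl-24.2, and these 2 ranges overlap slightly. A TE at least 2-fold higher was found in 5.57% of well-expressed transcripts, and in 10.6% of those with higher RPF. It was found in both CE01031 and rpl-24.2, and in all 46 rpl- and rps- sequences. For CE01031 and rpl-24.2 TE was higher by more than RPF was, since mRNA ran the other way. The study's list of lower mRNA with higher RPF had quartiles of 1.36 and 2.79 in log2 TE change. Of its 100 well-expressed sequences, 65 were below rpl-24.2 and 38 below CE01031. TE change is made of the mRNA and RPF changes used in choosing the 2 sequences, and the 46 were chosen on RPF data. Nothing is therefore read from these places.

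In diapause all of these transcripts carried few footprints for their mRNA. Relative to the median transcript of the state on a log2 scale, TE in diapause animals was −2.76 for CE01031, −2.36 for rpl-24.2 and −2.77 for CE01030. For CE01031 this is 6.79-fold, and for rpl-24.2 5.13-fold, below the median transcript. All 46 rpl- and rps- sequences were below it too, between −3.63 and −1.87, and 19 of them were below CE01031 and 35 below rpl-24.2. Among all well-expressed transcripts the percentile of diapause TE was 1.08 for CE01031 and 1.96 for rpl-24.2. Both came from the study's list of lower mRNA with higher RPF. All 100 well-expressed sequences of that list were below the median transcript in diapause, with a median of −2.04. Of these, 25 were below CE01031 and 44 below rpl-24.2, so nothing is read from the low percentiles.

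In developing animals the 2 sequences parted. The TE of rpl-24.2 was 0.16 above the median transcript on the log2 scale, at the percentile 59.3, with the 46 rpl- and rps- sequences around 0.00 at their median and 38 of them lower. CE01031 stayed at −1.15, or 2.21-fold below the median transcript, at the percentile 10.5, and 1 of the 46 was lower, rps-25 at −1.16. CE01030 was at −0.02, with 22 of the 46 lower. The 100 well-expressed sequences of the study's list of lower mRNA with higher RPF had a median of 0.16 in developing animals. Of these, 35 were below the median transcript, and the 5th percentile of that list was −1.20. RPF signal per mRNA signal, before that centring, was 0.695 in developing and 0.12 in diapause animals for rpl-24.2, and for CE01031 it was 0.282 in developing and 0.0908 in diapause animals.

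**Figure D3:**
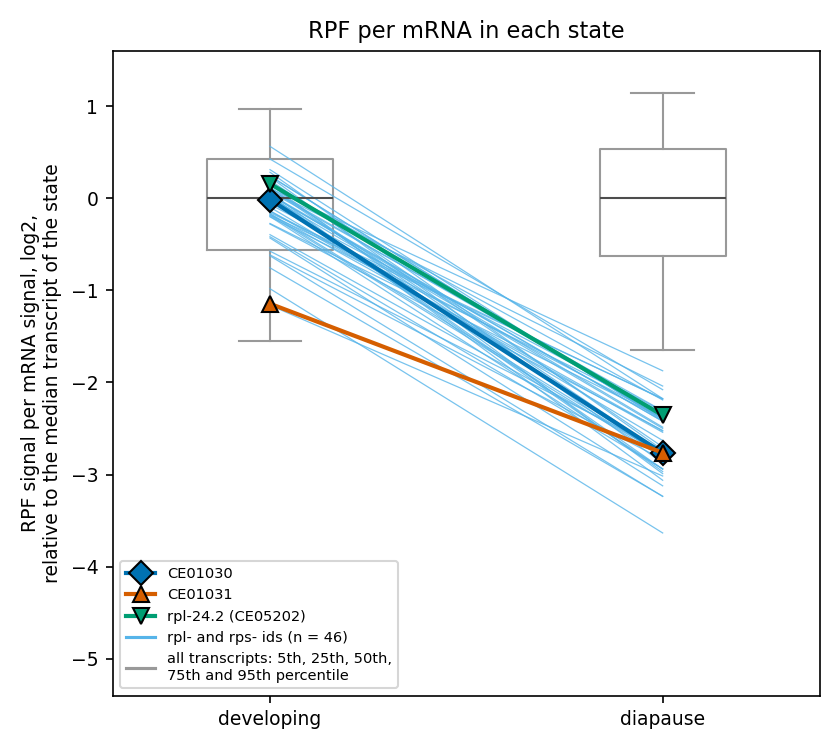
RPF signal per mRNA signal on a log2 scale, relative to the median transcript, in developing (left) and diapause (right) animals. Thick lines are CE01030, CE01031 and rpl-24.2, thin lines the 46 rpl- and rps- sequences, and boxes the 25th to 75th percentile of all well-expressed transcripts with whiskers to the 5th and 95th; in diapause every line ends below the box, and in developing animals CE01031 (−1.15) stays below the box where rpl-24.2 (0.16) is inside it.

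Some ribosome biogenesis factors had lower mRNA with higher RPF, as rpl-24.2 did, and most did not. Of the 23 identifiers in the study's ribosome biogenesis list, all of them with higher RPF since the list was drawn from such transcripts, 6 had lower mRNA in developing animals (26.1%, beside 14.3% of the 6117 well-expressed transcripts with higher RPF) and 5 were lower by at least 0.32 log2 units (beside 4.2% of those transcripts). Since 3 of the 6 belong to 1 gene and rpl-24.2 was itself chosen for this direction, nothing is read from these shares. The 6 were rpl-24.2, 3 coding sequences of T07A9.9, lpd-7 and CE02624, for which no name was at hand. T07A9.9 is nog-1 in RefSeq, the relative of the yeast GTPase Nog1, which acts on the same large-subunit precursor as Rlp24, and lpd-7 encodes the relative of pescadillo, another large-subunit assembly factor. The 3 coding sequences of nog-1 can share reads, and their mRNA changes of −1.66, −1.66 and −1.34 and RPF changes of 1.76, 1.76 and 2.03 count as 1 gene. For lpd-7 the changes were −0.55 in mRNA and 2.57 in RPF, and for CE02624 they were −0.26 and 3.53. The TE changes of the 5 others, from 3.12 for lpd-7 to 3.79 for CE02624, were above the 2.53 of rpl-24.2. Those of the 17 with higher mRNA were below it. A lower mRNA raises the TE change by definition, and 3 of the 5 are nog-1, so nothing is read from this split.

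The other 17 factors had higher mRNA. The median mRNA change of the list was 1.76, beside 1.05 for the rpl- and rps- sequences, and its median TE change was 0.80, beside 2.53. In both values rpl-24.2 was nearer to the rpl- and rps- median than to that of the biogenesis list. Its mRNA direction was a ground of its choice and enters TE, so nothing is read from this. In RPF change its 2.08 was nearer to the biogenesis median of 2.82 than to the rpl- and rps- median of 3.57. RPF data were also used in choosing rpl-24.2 and both lists, so nothing is read from this either. TE was at least 2-fold higher in 9 of the 23, beside 10.6% of transcripts with higher RPF. The 9 include the coding sequences of nog-1, which can share reads, and rpl-24.2 itself. Nothing is read from this share, nor from those of the nucleolus list, which also holds these sequences. In the overlapping nucleolus list of 33 identifiers, 7 had lower mRNA (beside 14.3%) and 13 had a TE at least 2-fold higher (beside 10.6%). The seventh there was Y53C12B.2, pno-1 in RefSeq, the relative of a yeast small-subunit assembly factor, with an mRNA change of −0.41 and an RPF change of 2.53.

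**Figure D4:**
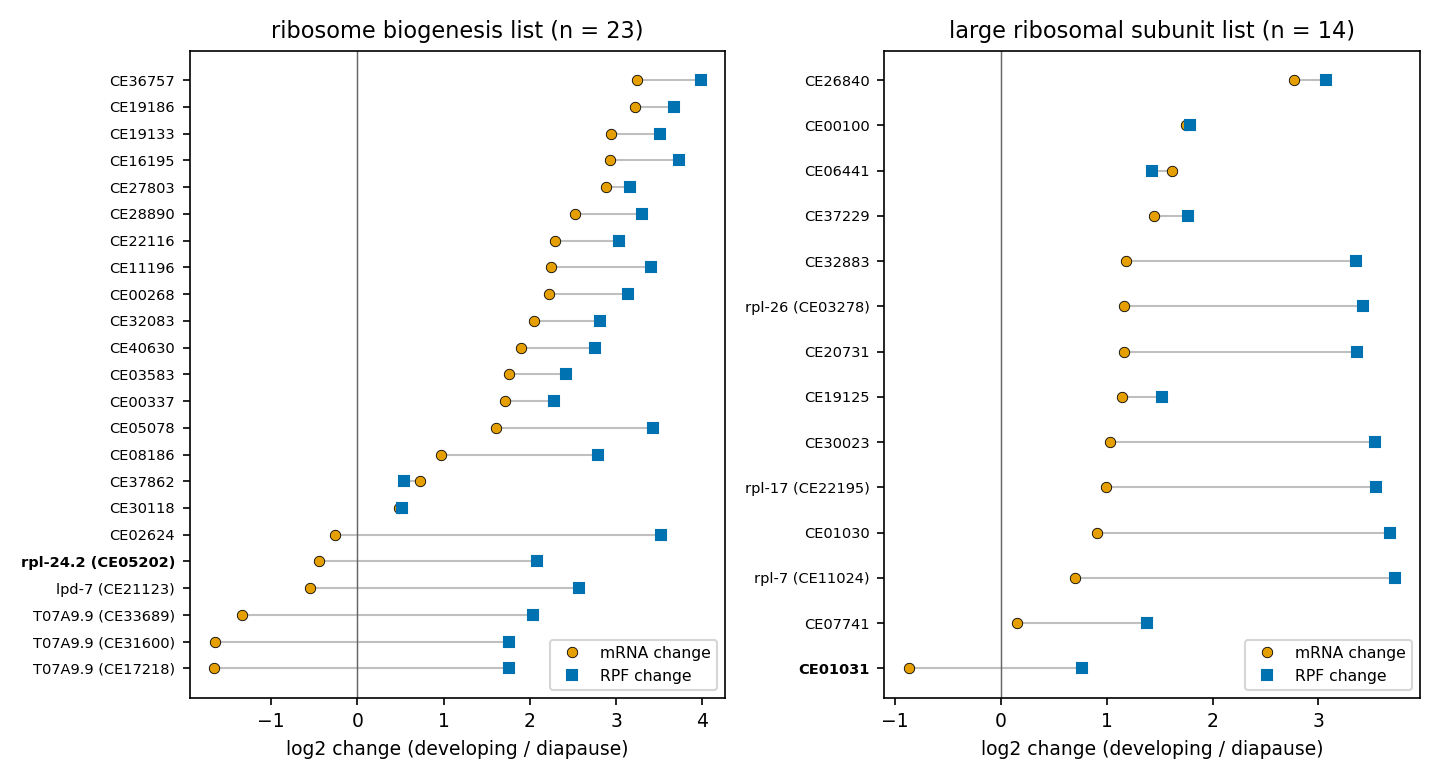
Log2 changes (developing over diapause) of mRNA (circles) and RPF (squares) for the study's lists of ribosome biogenesis (left, 23 identifiers) and large ribosomal subunit (right, 14 identifiers), ordered by mRNA change with the highest on top. In the left panel rpl-24.2 is among 6 identifiers left of zero in mRNA. In the right panel CE01031 (−0.87) is alone there. Both were chosen for that direction.

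CE01031 had the lowest mRNA change in both kinds of list that hold it. It was chosen for lower mRNA, and these lists hold transcripts with higher RPF, so nothing is read from this rank. Of the 14 identifiers of the large ribosomal subunit list it had the lowest mRNA change and the lowest RPF change, and it was the single one with lower mRNA (beside 14.3% of transcripts with higher RPF). CE01030 had the second highest RPF change of that list, after rpl-7 with 3.73. Of the 28 identifiers of the iron-sulfur list CE01031 again had the lowest mRNA change. Lower mRNA with higher RPF was seen in 4 of the 28 (beside the same 14.3%), of which isp-1, the Rieske iron-sulfur protein of respiratory complex III, had −0.47 in mRNA and 0.70 in RPF, and the other two were within 0.05 of 0. The RPF change of CE01031 was well within that list, with 10 identifiers lower and 17 higher, whereas its TE change was exceeded by that of CE01030 only. In diapause, its TE relative to the median transcript was the second lowest of the list, above that of CE01030 by less than 0.01.

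In the study's list of 130 coding sequences with lower mRNA and higher RPF, 100 were well expressed. CE01031 was near the middle of these, with 38 lower and 61 higher in mRNA change, and 35 lower and 64 higher in RPF change. The mRNA decrease of rpl-24.2 was among the smallest, with 91 lower and 8 higher, and its RPF change was among the larger ones, with 82 lower and 17 higher.

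The transcripts with the most similar pattern were sought among those that the study names, by the Euclidean distance between the log2 values of the 4 state means, each set centred on its own mean. Nearest to CE01031 were 2 coding sequences of mes-3, a component of a histone methyltransferase complex (distances 0.06 and 0.12), then uaf-1, a splicing factor subunit (0.15), and 2 coding sequences of hlh-11, a helix-loop-helix transcription factor (0.23 and 0.24). Their mRNA changes lay between −0.79 and −0.63 and their RPF changes between 0.62 and 0.76. The nearest of the listed rpl- and rps- sequences, rpl-3, was at 2.24, and CE01030 at 2.48. Nearest to rpl-24.2 were C02F5.3 (0.18), Y54E10BR.4 (0.26), W09C5.1 (0.26), F58E10.3 (0.30) and Y53C12B.2 (0.32), of which RefSeq calls the second nobh-1, the relative of a yeast endonuclease of rRNA, the fourth ddx-17, an RNA helicase, and the fifth pno-1. Their mRNA changes lay between −0.65 and −0.41 and their RPF changes between 1.77 and 2.53. The nearest of the listed rpl- and rps- sequences was rpl-12, at 1.15. All 10 came from the study's list of lower mRNA with higher RPF, and the distances rest on 4 means and are a description only.

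In the pools of mRNA and footprints, CE01031 and rpl-24.2 were minor. CE01031 held 0.0133% of the summed mRNA signal in developing and 0.0267% in diapause animals, and rpl-24.2 held 0.0137% in developing and 0.0206% in diapause animals. Of the summed RPF signal, CE01031 held 0.0059% in developing and 0.0047% in diapause animals, and rpl-24.2 held 0.015% in developing and 0.0048% in diapause animals. The 46 rpl- and rps- sequences together held 11.7% of mRNA signal in developing and 6.51% in diapause animals, and 10.7% of RPF signal in developing and 1.23% in diapause animals. Summed normalised signal was higher in developing animals in both assays, so a change in share is lower than one by size factors: on the scale of shares, the median transcript shifted to −0.10 for mRNA and −0.43 for RPF in log2 units. On that scale the mRNA of rpl-24.2 was at −0.59 and its RPF at 1.64, and the mRNA of CE01031 was at −1.01.

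Size factors set the typical transcript to no change within each assay, so every change here is relative to other transcripts, and amounts per animal were not measured. Reads that map to the coding sequences of more than 1 isoform could count for each. Recovered library totals were from 6450223 to 23781161 for mRNA and from 4950675 to 14419634 for RPF. These totals leave out coding sequences without a single solution. They can therefore differ from the number of reads in either direction, and were not compared with it. The 3 libraries of a state were separate batches of worms.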

How the data were processed

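The authors selected poly(A) mRNA or isolated RPFs, trimmed reads, mapped them with Bowtie 0.12.7 to WS230 genomes and coding sequences, and compared states with DESeq. The 2 C. elegans tables used hold, per coding sequence, the mean normalised signal of each state as the authors deposited it (reads over size factor) and a ratio of observed to fitted variance that the authors deposited. The 4 further columns, fold change, log2 fold change, p-value and adjusted p-value, are the authors' own comparison and were not used. The 6 tables of the other species were not used.

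Columns are headed A and B. A was taken as diapause because the study's lists then have their stated directions in 127 of 127 and 52 of 52 measured coding sequences. The directions of CE01031 and CE05202, which are in the first list, are therefore not independent of this reading.

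Each state mean is an average over 3 libraries of whole reads over a size factor. Whole reads and size factors that give all 15 printed digits were searched for (Python 3.11.15, numpy 2.4.6, numba 0.67.0). From 99.4% to 99.8% of means of at least 50 had a single solution, depending on the column (very high means often had several or were above the search limit). On simulated libraries, 100% of means of 50 to 2000, 83.3% of those of 2000 to 5000 and 35.0% of those of 5000 to 30000 had a single solution, and every single solution was right. Above a mean of 5000, only library values within a set range around the mean were searched. No mean above 30000 was simulated. That leaves out the developing mRNA means of CE01030, rpl-24.1 and some of the other rpl- and rps- sequences. As a check on the real values, the recovered variance over the deposited ratio, which is the fitted variance, lay within 0.134 log2 units of the median of 10 neighbours in mean signal in all 8 cases for CE01031 and CE05202, and within 0.0433 for CE01030 and 0.0382 for rpl-24.1. The recovered libraries carry no replicate number. State means are the authors' values; SEs come from the log2 values of recovered libraries and combine the errors of both states (for TE, of both assays). Changes are log2 of developing over diapause, with no pseudocount. No p-value was computed, because the choice of sequences used this contrast.

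The sequences and comparison lists were chosen with earlier results of these data known. Named are both sequences, CE01030, rpl-24.1, the rpl- and rps- sequences of lowest and highest mRNA change and lowest diapause mRNA level, and the 5 named transcripts of nearest pattern to each; members of the functional lists with lower mRNA, and rpl-7, were named after their values were seen. None of the identifiers was found in the table of gene names at hand. RefSeq WBcel235 was used for names and neighbours only. The design written at the start had expected state means and no single libraries.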

Additional observations from a re-analysis of the deposited data

How the results depend on the processing

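Centring on the median transcript or a pseudocount of 1 moved each change of CE01031, CE05202 and the rpl- and rps- median by less than the spread between libraries and turned no direction. Leaving out each library in turn gave log2 mRNA changes of −1.0 to −0.75 for CE01031 and −0.54 to −0.35 for CE05202, and RPF changes of 0.71 to 0.83 and 2.07 to 2.10. As a share of the summed signal, a scaling added after the data were seen, the RPF change was 0.32 for CE01031, 1.64 for CE05202 and 3.13 for the median of the rpl- and rps- sequences, and the TE change of CE05202 was 2.23; the median transcript shifted by the same scaling, so places relative to it did not move. With no filter on low signal, 9.50% of transcripts had a TE at least 2-fold higher, beside 5.57%. In all, 60 of the values recomputed moved by less than the spread between libraries, or by less than 1.5 times for shares, and 5 moved by more. No paired analysis was possible because the deposited columns are means over replicates, the recovered libraries carry no replicate number, and no test was run. Depth limits the RPF values: the smallest counts were 218 reads for CE01031 and 240 for CE05202, with counting errors of 6.77% and 6.455%, near or above the spread between libraries. Counting error alone gives an SE of 0.06 (CE01031) and 0.05 (CE05202) for the RPF changes and 0.03 for each mRNA change. Counts for mes-3, which is less abundant, went down to 52 reads.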
